A study of Mus musculus with 13 samples.

Results

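The genes described here are a group of 10 that serve the defence of the cell against oxidants and metals: the transcription factor gene *Nfe2l2*, 7 genes listed with it (*Nqo1*, *Hmox1*, *Gclc*, *Gclm*, *Txnrd1*, *Srxn1* and *Slc7a11os*), and the metallothionein genes *Mt1* and *Mt2*. They were taken by name, and 9 of the 10 were found among the 53465 genes of the liver count table. *Slc7a11os* matched no gene identifier or symbol in the annotation used here, and no value is given for it. Liver RNA was sequenced from individual BALB/c mice, 6 WT and 7 *Nod2*-/-, with 1 library per mouse. All the mice had been given DMBA, a chemical carcinogen, and kept on a high fat diet (HFD), and the labels give their age as 30 weeks and their disease state as cancer. The *Nod2*-/- mice lack the gene for an intracellular sensor of bacterial peptidoglycan, and in the labels they differ from the WT group only in genotype. The paper states that the sequenced livers came from male mice. It reports that *Nod2*-/- mice on this regimen gained more weight and had more and larger liver tumors than WT mice. Tumor load and body weight of the sequenced mice were not used here, and their part cannot be told apart from that of genotype. The comparison asks which liver transcripts differ between the genotypes under this regimen. No untreated or chow-fed mice were analysed here.

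NRF2, the product of *Nfe2l2*, is held in the cytoplasm by KEAP1 and degraded until oxidants or electrophiles modify KEAP1. NRF2 then enters the nucleus, pairs with small MAF proteins and binds antioxidant response elements near genes for glutathione synthesis, thioredoxin recycling, quinone reduction and heme breakdown. Because KEAP1 controls the protein, the level of the *Nfe2l2* transcript need not follow NRF2 activity. Metallothioneins are small cysteine-rich proteins that bind zinc and copper. In liver their genes respond to metals through the factor MTF1 and also to glucocorticoids and inflammatory cytokines.

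The depth of the WT libraries was 14886273 to 20579984 counted reads, with a median of 16964780. For the *Nod2*-/- libraries it was 13824780 to 19391431, with a median of 15618467. Values below are normalized counts, which are counts brought to a common depth with TMM factors. Here n is 6 WT and 7 *Nod2*-/- mice throughout. Fold changes are *Nod2*-/- against WT from edgeR's quasi-likelihood test, with p adjusted by Benjamini and Hochberg's method over all 13545 genes tested (FDR). The *Nod2* transcript was nearly absent from both genotypes, at most 4 counts in a WT mouse and 6 in a *Nod2*-/- mouse, too few to check the genotype labels. The defining hepatocyte gene *Alb* was abundant in both groups, at 1142240 ± 197864 (SD, n = 6) and 1323090 ± 400377 (SD, n = 7) normalized counts.

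All 9 genes found had enough counts to be tested, and 0 of them passed 5% FDR by edgeR, where 1.16% of all genes tested did. DESeq2's Wald test also placed 0 of the 9 past 5% FDR, against 8.41% of the 14370 genes to which it gave an adjusted p. At an unadjusted p under 0.05 edgeR had 3 of the 9 (*Nfe2l2*, *Mt1* and *Mt2*), as did DESeq2 with 3, and 23.1% of all genes tested reached this level by edgeR. The normalized counts of the genotypes overlapped for each of the 9, whereas 1.44% of the genes tested did not overlap. Of the 9, 5 had a fold change above 1 and 4 below it. Their median log2 fold change was 0.10, and that of all genes tested was 0.02.

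**Figure D1:**
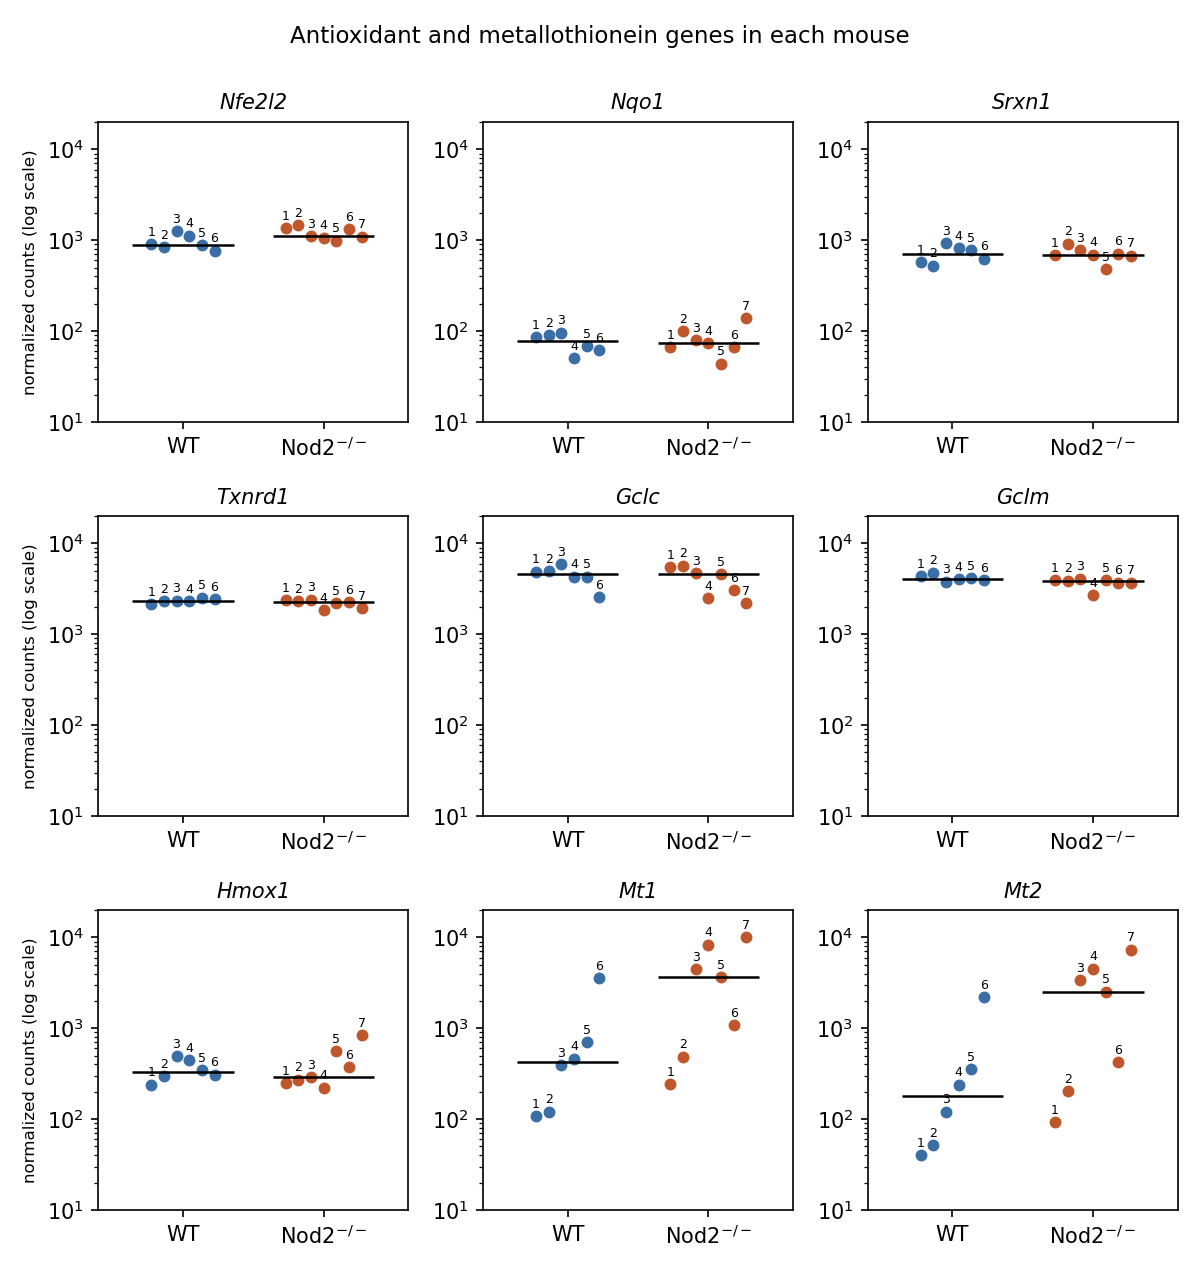
Normalized counts of 9 genes in each mouse on a log axis that is the same in every panel, for 6 WT (blue) and 7 *Nod2*-/- (orange) mice. Points carry the replicate number and black lines are medians. *Mt1* and *Mt2* spread over 93.1-fold and 184-fold between mice, and *Txnrd1* over 1.38-fold.

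*Nfe2l2* (ENSMUSG00000015839.6, chromosome 2, 75675513 to 75704641 of GRCm38) had 769 normalized counts in the lowest WT mouse, a median of 892 and 1249 in the highest. In *Nod2*-/- mice the lowest value was 992, the median 1104 and the highest 1456. All 7 *Nod2*-/- mice lay above the WT median and 4 WT mice lay below every *Nod2*-/- mouse, but WT replicates 3 and 4 fell among the *Nod2*-/- mice. The log2 fold change was 0.32 (standard error 0.13, 95% interval 0.05 to 0.59, adjusted p = 0.158 by edgeR), and a two-sided exact permutation test of the mean normalized counts gave p = 0.0414. It was the lowest adjusted p of the 9 genes.

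*Nqo1*, which codes for a quinone reductase, is the usual marker of NRF2 activity. It (ENSMUSG00000003849.8, chromosome 8, 107388225 to 107403206) was the least abundant of the 9, with 50.4, 77.3 and 95.8 normalized counts as the lowest, median and highest WT values and 44.0, 73.8 and 138 in *Nod2*-/- mice. The highest and the lowest mouse were both *Nod2*-/- mice, replicates 7 and 5, so the range of the WT mice lay within that of the *Nod2*-/- mice. The log2 fold change was 0.10 (95% interval -0.40 to 0.61, adjusted p = 0.825 by edgeR; exact permutation p = 0.720).

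*Srxn1* codes for sulfiredoxin, which restores over-oxidized peroxiredoxins, and *Txnrd1* for the thioredoxin reductase of the cytosol. *Srxn1* (ENSMUSG00000032802.8, chromosome 2, 152105516 to 152111376) had 524, 704 and 932 normalized counts as lowest, median and highest in WT mice and 480, 691 and 919 in *Nod2*-/- mice. Its log2 fold change was -0.01 (95% interval -0.34 to 0.32, adjusted p = 0.978 by edgeR; exact permutation p = 0.964). The 2 distributions covered nearly the same range. *Txnrd1* (ENSMUSG00000020250.10, chromosome 10, 82833951 to 82897712) had 2144, 2317 and 2529 in WT mice and 1828, 2259 and 2405 in *Nod2*-/- mice. Its log2 fold change was -0.10 (95% interval -0.27 to 0.08, adjusted p = 0.488 by edgeR; exact permutation p = 0.182). It was the steadiest of the 9 genes from mouse to mouse, with a coefficient of variation of 5.58% in WT and 10.2% in *Nod2*-/- mice.

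*Gclc* and *Gclm* code for the catalytic and the modifier subunit of glutamate-cysteine ligase, the enzyme that sets the rate of glutathione synthesis. *Gclc* (ENSMUSG00000032350.9, chromosome 9, 77754535 to 77794485) had 2568, 4603 and 5921 normalized counts as lowest, median and highest in WT mice and 2196, 4586 and 5703 in *Nod2*-/- mice. WT replicate 6 and *Nod2*-/- replicates 4, 6 and 7 were the low mice, and every other mouse had at least 4283. Its log2 fold change was -0.15 (95% interval -0.67 to 0.36, adjusted p = 0.736 by edgeR; exact permutation p = 0.536). *Gclm* (ENSMUSG00000028124.15, chromosome 3, 122245557 to 122270732) varied less, with 3799, 4068 and 4755 in WT mice and 2672, 3899 and 4092 in *Nod2*-/- mice. In *Nod2*-/- replicate 4 it stood well below the other mice, and 3 WT mice lay above every *Nod2*-/- mouse. Its log2 fold change was -0.17 (95% interval -0.39 to 0.05, adjusted p = 0.331 by edgeR), with an exact permutation p = 0.0449 on normalized counts and 0.0507 on log2 CPM, the count scaled to library size. *Gclm* overlaps *Gm6061*, a transcribed pseudogene on the same strand with up to 98 counts, so a small part of its reads is uncertain.

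*Slc7a11*, the cystine transporter gene that supplies this synthesis and the neighbour in name of *Slc7a11os*, reached at most 6 counts in a WT mouse and 9 in a *Nod2*-/- mouse. It was too low to be tested, and a difference in it was not detectable at this depth.

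*Hmox1* (ENSMUSG00000005413.8, chromosome 8, 75093621 to 75100589) codes for heme oxygenase, which opens the heme ring and in liver is abundant in macrophages that clear red cells. Its lowest, median and highest normalized counts were 240, 328 and 490 in WT mice and 221, 292 and 839 in *Nod2*-/- mice. *Nod2*-/- replicates 7 and 5 were above every WT mouse, while the median of the *Nod2*-/- mice was below that of the WT mice. The log2 fold change was 0.18 (95% interval -0.45 to 0.81, adjusted p = 0.749 by edgeR; exact permutation p = 0.704). Without *Nod2*-/- replicate 7 it was -0.11, and that of *Nqo1*, also highest in this mouse, was -0.08.

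*Mt1* and *Mt2* lie side by side and had the largest fold changes and the widest spread of the 9. *Mt1* (ENSMUSG00000031765.8, chromosome 8, 94179082 to 94180327) had 109, 429 and 3564 normalized counts as lowest, median and highest in WT mice and 244, 3637 and 10121 in *Nod2*-/- mice. *Mt2* (ENSMUSG00000031762.7, chromosome 8, 94172664 to 94173568) had 40.0, 180 and 2211 in WT mice and 93.1, 2521 and 7350 in *Nod2*-/- mice. For both genes the high mice were *Nod2*-/- replicates 3, 4, 5 and 7 and WT replicate 6. The 4 *Nod2*-/- mice lay above every WT mouse, WT replicate 6 lay above *Nod2*-/- replicates 1, 2 and 6, and the groups overlapped.

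The log2 fold change of *Mt1* was 2.18 (standard error 0.94, 95% interval 0.16 to 4.19, adjusted p = 0.187 by edgeR; two-sided exact permutation p = 0.0810). That of *Mt2* was 2.39 (standard error 1.07, 95% interval 0.10 to 4.67, adjusted p = 0.201 by edgeR; exact permutation p = 0.0734). Neither passed 5% FDR after adjustment over all genes, and both permutation p were above 0.05. The intervals, which are not adjusted for the number of genes, lay above 0 (unadjusted p = 0.0360 and 0.0422 by edgeR). On a linear scale they run from 1.12-fold to 18.2-fold for *Mt1* and from 1.07-fold to 25.5-fold for *Mt2*. WT replicate 6 held 69.0% of the summed *Mt1* and *Mt2* counts of the WT group. Without it the log2 fold changes were 3.49 and 4.04, with adjusted p = 0.0646 and 0.0647 by edgeR, within ranges over all alternatives of 0.0646 to 0.332 and 0.0647 to 0.356. *Nod2*-/- replicate 7 held 37.3% of the *Nod2*-/- sum, and without it the log2 fold changes were 1.76 and 1.88.

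The spread of the metallothionein genes was extreme even within a genotype. The standard deviation of log2 CPM around the genotype means was 1.95 for *Mt1*, above 99.9% of the genes tested, and higher still for *Mt2* at 2.25, where the median gene was at 0.26. For *Hmox1* and *Gclc* it was 0.56 and 0.50, above 91.4% and 87.8% of genes. *Txnrd1*, at 0.13, was among the least variable. The number of *Mt2* counts per *Mt1* count was not constant: the WT range was 0.307 to 0.620 (median 0.464) and the *Nod2*-/- range 0.381 to 0.758 (median 0.546), and in WT replicate 6, the high WT mouse, it was 0.620.

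Levels of different genes are compared here as CPM per kilobase of exon, averaged over the 13 mice. With the union of all annotated exons as length, *Mt2* was at 170, *Mt1* at 125, *Gclc* at 67.9 and *Gclm* at 37.5. *Txnrd1* (19.2), *Nfe2l2* (17.3), *Srxn1* (15.1) and *Hmox1* (13.1) followed, with ranges over mice that overlapped one another, and *Nqo1* was last at 3.05. In WT mice alone *Gclc* was at 71.7, *Mt2* at 51.6 and *Mt1* at 43.2, and in *Nod2*-/- mice *Mt2* and *Mt1* led at 271 and 196. The WT means of *Mt1* and *Mt2* rested on WT replicate 6, and without it, a choice made after seeing the data, they were 17.4 and 16.5, below *Gclc* at 77.9, *Gclm* at 40.4 and *Txnrd1* at 19.8. The union length of *Mt1*, 1246 bases, equals the span of the gene because 1 annotated transcript is unspliced. Over the 549 bases of its fully spliced transcript, a length chosen after seeing the data, the mean level of *Mt1* was 284 and that of *Mt2*, over the 511 bases of its longest transcript, was 195. In WT mice *Mt1* was then at 98.1, above *Gclc* at 78.9, and without WT replicate 6 at 39.4, below *Gclc* at 85.7. The order of *Mt1* and *Mt2*, and in WT mice that of *Mt1* and *Gclc*, therefore depends on the length used. In WT mice WT replicate 6 turned the order of *Mt1* and *Mt2* over the union length only, and that of *Mt1* and *Gclc* over the spliced length only. Over a single annotated transcript *Txnrd1* (3325 bases) had a mean of 40.9 over the 13 mice, near *Gclm* at 42.2. *Nfe2l2* (2475 bases) was then at 26.5.

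How the genes moved together was described by the Pearson correlation of log2 CPM over the 13 mice after the mean of each genotype was taken off, without a test. *Mt1* and *Mt2* had r = 0.99. The next highest for *Mt1* were *Slc37a1* (0.94) and *Scara5* (0.91), and the same 2 genes followed for *Mt2* (0.91 and 0.92). Among the other pairs of the 9 genes the highest r was that of *Nfe2l2* and *Srxn1* (0.75), while *Gclc* ran against *Mt1* and *Mt2* (-0.74 and -0.73).

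Of the 11507 genes compared in this way, those most like *Hmox1* were *Cd300a*, *Tmsb4x* and *Tnfaip8* (r 0.92, 0.92 and 0.90), and those most like *Gclc* were *Tex2*, *Acy3* and *Prepl* (0.97, 0.94 and 0.94). *Gclm* was most like *mt-Nd2*, *Ptprd* and *mt-Co1* (0.94, 0.94 and 0.93), 2 of which are encoded by the mitochondrial genome. For *Nfe2l2* they were *Rab3gap2*, *Tfcp2l1* and *Abhd4* (0.93, 0.91 and 0.91), and for *Srxn1* they were *Ralgapa1*, *Gcc2* and *Parp12* (0.95, 0.95 and 0.94). *Nqo1* was closest to *Lpp*, *Slc7a2* and *Il1a* (0.96, 0.90 and 0.86), and those close to *Txnrd1* included *Alkbh5* and *Usp30* (0.89 and 0.88). The members of this antioxidant group were thus not one another's closest genes, *Mt1* and *Mt2* excepted.

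The wider pathways were followed with 11 lists that together hold 120 genes, of which 111 were tested and 1 passed 5% FDR by edgeR. At an unadjusted p under 0.05 there were 35 by edgeR (31.5%, beside 23.1% of all genes tested), 19 with a fold change above 1 and 16 below it. The median log2 fold change over the lists was -0.02, and that of all genes tested was 0.02. With DESeq2 18 of the genes passed, 9 in each direction, where 8.41% of all its genes did. With voom 6 passed, 2 higher and 4 lower, where 6.22% of all genes did, and with edgeR without WT replicate 3 there were 10, 5 in each direction, where 8.49% of all genes tested passed. On simulated counts DESeq2 called unchanged genes more often than its 5% threshold allows and more often than edgeR and voom. The simulation gave every gene the same spread between mice beyond counting error, unlike these data, so it cannot give the error rate here. The genes below that passed with DESeq2 alone are treated as less certain calls. Leaving out single mice other than WT replicate 3 also gave calls by edgeR that were absent with all mice: *Chac1*, *Txnip*, *Abcc3* and *Angptl4* without *Nod2*-/- replicate 5 and *Klf9* without *Nod2*-/- replicate 2.

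The gene that passed was *Gstt2*, a theta-class glutathione S-transferase, with 1482 ± 432 normalized counts (SD, n = 6) in WT and 823 ± 142 (SD, n = 7) in *Nod2*-/- mice. Its log2 fold change was -0.85 (standard error 0.18, adjusted p = 0.0422 by edgeR; exact permutation p = 0.00117), and the groups overlapped. The call was lost in 10 of 21 alternatives, with adjusted p from 0.00111 to 0.114. The list of 15 glutathione S-transferases had 14 tested genes with a median log2 fold change of -0.25, and *Gstt2* was also its single gene past 5% FDR with DESeq2 and with voom.

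Of the 10 regulators of the NRF2 system, all tested, 0 passed by edgeR (3 at an unadjusted p under 0.05) and 0 with voom, and the median log2 fold change was -0.08. DESeq2 placed *Cul3*, for the scaffold of the ligase that KEAP1 serves, and *Nfe2l1* past 5% FDR (log2 fold changes -0.23 and -0.35, adjusted p = 0.0288 and 0.0459), and *Cul3* also passed with edgeR without WT replicate 3. By normalized counts, not divided by length, the most abundant were *Sqstm1* (-0.10), *Nfe2l1* and *Mafg* (-0.15). They code for a KEAP1-binding autophagy receptor, a factor related to NRF2 and a small MAF partner. Glutathione synthesis and recycling had 10 tested genes of 13, 0 past 5% FDR by edgeR (3 at an unadjusted p under 0.05) and a median of -0.14. DESeq2 called *Gss*, for glutathione synthetase, at 0.40 on the log2 scale (adjusted p = 0.0493), and *Chac1*, for an enzyme that degrades glutathione, at -0.94 (adjusted p = 0.00954). *Chac1* also passed with voom and with edgeR without WT replicate 3. The most abundant gene of the list, the peroxidase gene *Gpx1*, was at -0.38 (edgeR, adjusted p = 0.236). In the thioredoxin and peroxiredoxin list 0 of 13 passed by edgeR (2 at an unadjusted p under 0.05) and 0 with voom, and 10 had a fold change below 1. *Txnip*, for a protein that binds thioredoxin, was at -0.83 (adjusted p = 0.0624 by edgeR) and passed with DESeq2 and with edgeR without WT replicate 3 (adjusted p = 0.00560 and 0.0340). The log2 fold changes of *Prdx1*, *Prdx6* and *Prdx5* were -0.04, -0.39 and -0.07.

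Quinone reduction and NADPH supply had 12 tested genes of 15, with 0 past 5% FDR by edgeR (3 at an unadjusted p under 0.05) and 6 on each side of no change. *G6pdx* and *Pgd*, for the NADPH-forming dehydrogenases of the pentose phosphate pathway, were at 1.51 and 0.59 on the log2 scale (adjusted p = 0.0807 and 0.0669 by edgeR), and both passed 5% FDR with DESeq2, with voom and with edgeR without WT replicate 3. *Idh1*, *Ephx1* and *Ugdh*, its most abundant by normalized counts not divided by length, had log2 fold changes of -0.08, -0.43 and -0.33. For heme and iron genes 0 of 7 passed by edgeR (1 at an unadjusted p under 0.05) and 0 with voom. The ferritin genes *Ftl1* and *Fth1* were at -0.26 and -0.04 and *Fech*, for the enzyme that inserts iron into heme, at -0.35 (adjusted p = 0.0988 by edgeR, and 0.0329 with DESeq2).

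Among genes that remove superoxide and peroxide 0 of 4 passed by edgeR (3 at an unadjusted p under 0.05) and 0 with voom. Catalase (*Cat*) had 45275 ± 8016 normalized counts (SD, n = 6) in WT and 27188 ± 9765 (SD, n = 7) in *Nod2*-/- mice. The fitted log2 change was -0.74, with an adjusted p of 0.0932 by edgeR, and the gene was past 5% FDR with DESeq2 (adjusted p = 0.0201). *Sod1* and *Sod2* were at -0.15 and -0.35. Of 5 exporters 0 passed by edgeR (2 at an unadjusted p under 0.05), and the log2 fold changes of *Abcc2*, *Abcc3* and *Abcg2* were -0.38, -0.94 and -0.59. *Abcc3* had an adjusted p of 0.0662 by edgeR and passed with DESeq2 (0.00753), with voom and with edgeR without WT replicate 3 (0.0402). In the list of metallothioneins and zinc handling 0 of 10 tested genes passed by edgeR (2 at an unadjusted p under 0.05, *Mt1* and *Mt2*), DESeq2 or voom. Without WT replicate 3 edgeR called 1, the zinc importer gene *Slc39a4*, at 2.38 (adjusted p = 0.0221, edgeR), which was at 1.27 with all mice (adjusted p = 0.256, edgeR). *Slc39a14*, another zinc importer gene, was at -0.05, and *Mt3* and *Mt4* had at most 2 and 0 counts in any mouse.

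**Figure D2:**
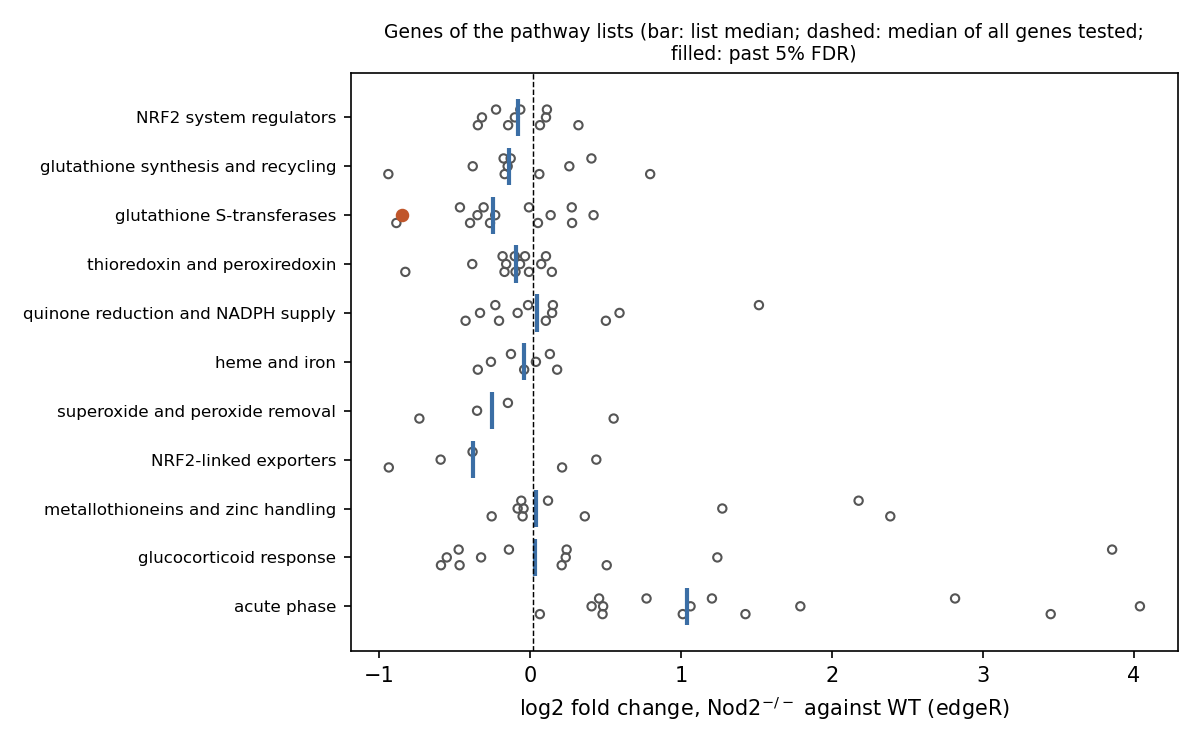
Log2 fold changes (*Nod2*-/- against WT, edgeR) of the tested genes of 11 lists. Each circle is a gene, filled if past 5% FDR, blue bars are list medians and the dashed line is the median of all genes tested (0.02). The filled circle is *Gstt2* at -0.85, and the acute phase list lies to the right with a median of 1.04.

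Because metallothionein genes respond to glucocorticoids and inflammation, both responses were listed as well. In the glucocorticoid list 0 of 12 passed 5% FDR by edgeR (4 at an unadjusted p under 0.05), with 6 on each side and a median log2 fold change of 0.03 (-0.10 without *Nod2*-/- replicate 5). *Pck1* and *Tat* were at -0.33 and 0.23. DESeq2 called *Klf9* (-0.55) and *Lcn2*, voom *Angptl4* (-0.59), and edgeR without WT replicate 3 *Cdkn1a* (1.82, and 1.24 with all mice) and *Lcn2* (4.46). *Lcn2*, which inflammation also raises, had 144, 667 and 2112 normalized counts as lowest, median and highest in WT mice and 982, 2601 and 53827 in *Nod2*-/- mice. The highest value was that of replicate 7, and the other *Nod2*-/- mice averaged 4192. Its log2 fold change was 3.86 (adjusted p = 0.0734 by edgeR, 0.00464 with DESeq2 and 0.0385 by edgeR without WT replicate 3; exact permutation p = 0.182), and 2.43 without *Nod2*-/- replicate 7 (adjusted p = 0.153, edgeR). In the acute phase list 0 of 14 passed by edgeR (9 at an unadjusted p under 0.05) and 0 with voom. DESeq2 called 5 (*Saa1*, *Saa2*, *Orm2*, *Hpx* and *Apcs*), where it called 8.41% of all its genes, and *Saa1* and *Saa2* are near-identical copies between which reads can be split. All 14 had a fold change above 1, as did 52.3% of all genes tested, and the median log2 fold change was 1.04. Without *Nod2*-/- replicate 7 it was 0.64 and 13 were above 1, with *Crp* at -0.03 on the log2 scale, *Orm2* at 1.40 in place of 3.45, *Saa2* at 2.70 in place of 4.04 and *Saa1* at 1.89 in place of 2.81. Without WT replicate 3 there were also 13. *Hpx*, *Hp* and *Fgb*, the most abundant of the list by normalized counts not divided by length, were at 1.06, 1.01 and 0.46. The summed normalized counts of the acute phase list were 330086, 382667 and 584083 as lowest, median and highest in WT mice and 412536, 622830 and 1254720 in *Nod2*-/- mice. WT replicate 6 was the highest WT mouse and *Nod2*-/- replicates 7 and 4 the highest *Nod2*-/- mice, as for *Mt1* and *Mt2*. The order differed for other mice, *Nod2*-/- replicates 6 and 3 among them. The sum of *Nod2*-/- replicate 6, 622830, lay above that of WT replicate 6. Its *Mt1* level of 1073 normalized counts lay below the 3564 of that WT mouse. For *Nod2*-/- replicate 3 the sum, 564805, lay below the 584083 of WT replicate 6, while its *Mt1* level of 4441 lay above. The part of the acute phase response in the metallothionein values was not tested.

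In whole liver, fewer cells of a type and less RNA per cell cannot be told apart, so lists of cell type genes were set beside the results. For *Hmox1* the list of 10 Kupffer cell genes, all tested and 0 past 5% FDR by edgeR (3 at an unadjusted p under 0.05), DESeq2 or voom, had a median log2 fold change of 0.46 (0.21 without *Nod2*-/- replicate 7). Of the 10 genes, 8 had a fold change above 1, as did 52.3% of all genes tested. The 2 below it were *Marco* (-0.85 on the log2 scale) and *Cd163* (-0.55). The sum of the list was 2419 to 4259 normalized counts in WT and 2920 to 8542 in *Nod2*-/- mice. It was highest in *Nod2*-/- replicates 7 and 5, the 2 mice with the most *Hmox1*. *Nod2*-/- replicate 4, the mouse with the least *Hmox1*, had a sum of 4001, where the WT median was 2868. The most abundant gene of the list was *Clec4f* (log2 fold change 0.35). The list of 8 inflammatory monocyte genes had 0 of 6 tested genes past 5% FDR by edgeR (3 at an unadjusted p under 0.05) and voom, a median of 0.81 and *Lyz2* (0.19) as its most abundant gene. *Cd14*, at 2.22 on the log2 scale, passed with DESeq2 and with edgeR without WT replicate 3 (adjusted p = 0.0171 and 0.0412). Without *Nod2*-/- replicate 7 *Cd14* was at 1.31 (adjusted p = 0.141, edgeR), and the median of the list was 0.41 with 5 of 6 genes above no change, *Lyz2* being the exception at -0.19. The sum of the list was 730 to 1871 in WT and 750 to 4803 in *Nod2*-/- mice, also highest in replicate 7. Of the 10 neutrophil genes 4 were tested and 0 passed 5% FDR by edgeR (4 at an unadjusted p under 0.05) or voom, with a median of 3.42 that was 1.28 without *Nod2*-/- replicate 7. DESeq2 called *S100a8*, *S100a9* and *Ngp*, the last not tested by edgeR. *S100a9*, the most abundant, was at 4.85 on the log2 scale (adjusted p = 0.0656 by edgeR and 0.000182 with DESeq2; exact permutation p = 0.434), and at 1.92 without *Nod2*-/- replicate 7. The list had a summed level of at most 156 in a WT mouse, and *Nod2*-/- mice spanned 102 to 16309, with the top value again in replicate 7. The part of these cells in the values of *Hmox1* and *Nqo1* in this mouse was not tested.

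Genes of erythroid cells, whose hemoglobin is a source of heme, had 0 of 6 tested genes past 5% FDR by edgeR (4 at an unadjusted p under 0.05) or voom and a median of 1.49. DESeq2 called the hemoglobin genes *Hba-a1*, *Hba-a2* and *Hbb-bt* (1.70, 1.77 and 1.55 on the log2 scale by edgeR) and *Slc4a1*, which edgeR did not test. The *Hba* and *Hbb* genes are close copies between which reads can be split. The sum of the list was 5086 to 8690 in WT and 6255 to 19262 in *Nod2*-/- mice. Per kilobase of exon *Hbb-bs* led in both genotypes, at 178 CPM in WT and 477 in *Nod2*-/- mice, ahead of *Alas2*, for the heme synthesis enzyme of red cells, at 93.5 and 71.2. Their log2 fold changes lay on opposite sides, at 1.42 and -0.39. In the cholangiocyte list 1 of 5 tested genes passed by edgeR, *Sox9*, at 1.29 on the log2 scale (adjusted p = 0.0324, edgeR), and the call was lost in 8 of 21 alternatives (adjusted p from 0.000119 to 0.0942). The median of the list was 0.24, with *Krt19* at -0.40 (0.32 without WT replicate 6), *Krt7* at -0.05 and *Epcam* at 0.24. *Spp1*, its most abundant gene, was at 1.30 (adjusted p = 0.109 by edgeR) and passed with voom and with edgeR without WT replicate 3. No gene passed among 10 hepatocyte, 6 endothelial and 8 stellate cell and fibroblast genes by edgeR (0 each; medians -0.11, 0.26 and -0.22), with *Alb*, *Clec4g* and *Dcn* the most abundant. At an unadjusted p under 0.05 edgeR had 4, 2 and 0 of them, and of the 4 hepatocyte genes 1 was higher and 3 were lower. In the hepatocyte list 5 genes had a fold change above 1, with *Apoa1* at 0.53 on the log2 scale (adjusted p = 0.198, edgeR), and 5 below it. DESeq2 called the hepatocyte genes *Cps1*, *Cyp2e1* and *Hnf4a* (-0.38, -0.94 and -0.34) and the endothelial genes *Pecam1* and *Vwf* (0.46 and 1.32). Of these *Cyp2e1*, *Pecam1* and *Vwf* also passed with voom and with edgeR without WT replicate 3, and *Vwf* without WT replicate 6 and without *Nod2*-/- replicates 1, 2 and 3 as well. Without WT replicate 3 the median of the stellate cell and fibroblast list was 0.09, with 5 genes above no change and 3 below it, where all mice gave 3 and 5.

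Lung epithelium genes were listed as well, of which *Cyp2f2* is also expressed by liver. In the fit 6 of the 7 tested had a fold change below 1, and the median log2 fold change was -2.15. It was -1.43 without WT replicate 4, the mouse with the most of each surfactant gene, when *Sftpa1* was at -1.54, *Sftpc* at -2.46, *Sftpd* at -0.77 and *Slc34a2* at -1.43. By edgeR 0 passed 5% FDR (5 at an unadjusted p under 0.05), as with voom. DESeq2 called 6, the surfactant genes *Sftpa1*, *Sftpb*, *Sftpc* and *Sftpd* (-2.15, -2.85, -3.09 and -1.70 by edgeR), *Slc34a2* (-2.20) and *Scgb1a1*, which edgeR did not test, and edgeR without WT replicate 3 called *Sftpa1*, *Sftpb* and *Sftpc*, the first 2 also without *Nod2*-/- replicate 5. *Sftpc* had 106, 372 and 1786 normalized counts as lowest, median and highest in WT mice and 7.84, 40.6 and 251 in *Nod2*-/- mice. The list sum, 12682 to 22619 in WT and 4968 to 19394 in *Nod2*-/- mice, was mostly *Cyp2f2* (log2 fold change -0.38), the most abundant gene. The part of lung RNA in the values of the antioxidant and metallothionein genes was not tested.

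Of 8 pancreas acinar genes 7 had at most 3 counts in every mouse, and the other, *Cela1*, was at -0.83 (adjusted p = 0.117 by edgeR and 0.0466 with DESeq2).

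*Mt1*, *Mt2*, *Hmox1* and *Nqo1* share chromosome 8 with *Nod2*, the gene removed in the *Nod2*-/- mice. *Mt2* and *Mt1* lie 5.48 and 5.49 Mb from it, *Hmox1* 13.5 Mb and *Nqo1* 18.7 Mb. Within 1 Mb of *Mt1* and *Mt2* there were 29 other tested genes, and 5 passed 5% FDR by edgeR, where 1.16% of all genes tested did. *Arl2bp* (log2 fold change 3.63, adjusted p = 7.93e-06, edgeR) and *Cpne2* (1.07, adjusted p = 0.0422) were higher in *Nod2*-/- mice, and *Ces1g* (-4.13, adjusted p = 0.000189), the noncoding *Gm15889* (-1.38, adjusted p = 0.0422) and *Herpud1* (-0.55, adjusted p = 0.0490) were lower. *Arl2bp* and *Ces1g* passed in each alternative that gave an adjusted p, 20 and 21, and the other 3 in 13, 11 and 9 of 21. Of the genes tested, *Nup93* lay nearest to the metallothioneins and was at 0.47 (adjusted p = 0.268, edgeR). Whether a change near *Nod2* bears on *Mt1* and *Mt2* was not tested.

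**Figure D3:**
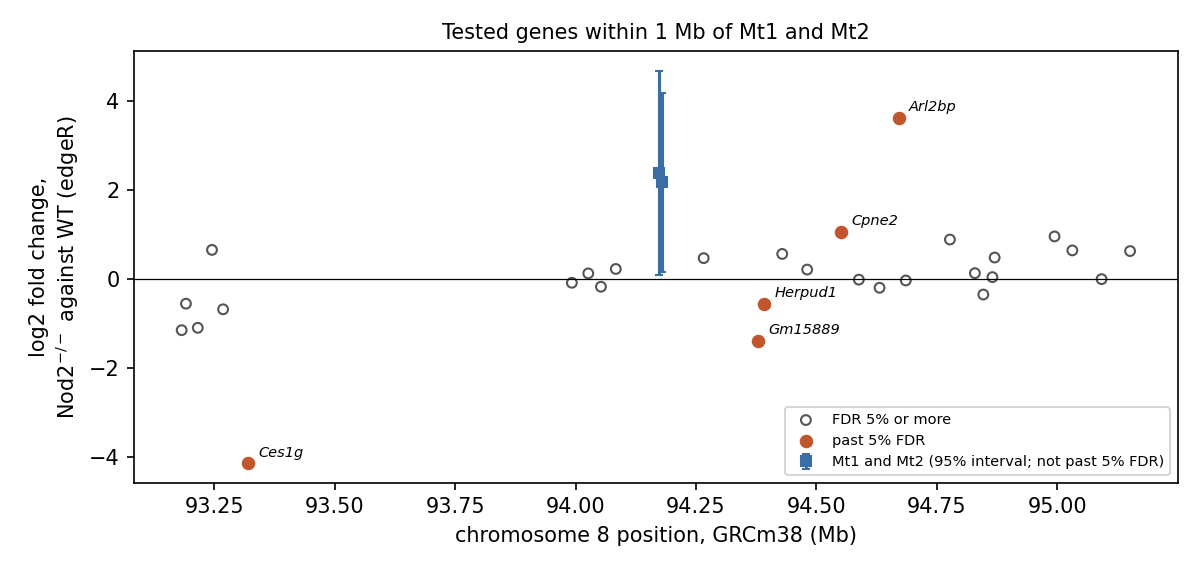
Log2 fold changes (*Nod2*-/- against WT, edgeR) of 29 genes within 1 Mb of *Mt1* and *Mt2*, by position on chromosome 8 of GRCm38. Filled circles passed 5% FDR. Squares are *Mt1* and *Mt2* with 95% intervals, 2.18 (0.16 to 4.19) and 2.39 (0.10 to 4.67), neither past 5% FDR.

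The 250 bases before the start of each gene were searched in the RefSeq promoter table (GRCm38.p6), which held 7 of the 10 genes in 9 windows. The core of the antioxidant response element, TGACNNNGC, was sought on both strands and occurs in 10.2% of the 32851 windows of the table. It had 1 match each before *Nfe2l2*, *Gclm*, *Mt2* and 1 of the 3 starts of *Txnrd1*, and 0 before *Srxn1*, *Nqo1* and *Mt1*. The core of the metal response element was sought as TGCGCNC and TGCACNC on both strands and occurs in 21.4% of windows. It had 3 matches before *Mt2*, 1 before *Mt1*, 2 before *Gclm*, 1 before *Srxn1* and 0 before *Nfe2l2*, *Nqo1* and *Txnrd1*. A match is a run of letters, not a binding site shown by these data.

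The windows of *Mt2* (plus strand, chr8:94172368-94172617) and *Mt1* (plus strand, chr8:94178839-94179088) are shown because these neighbours moved together most closely, with the metal response element matches in capitals. GENCODE has 3 starts for *Mt1*, at 94179082, 94179211 and 94179241, and the RefSeq window shown runs just past the first of them. The 159 bases between the first and the last hold 4 further matches, outside the window shown.
*Mt2*: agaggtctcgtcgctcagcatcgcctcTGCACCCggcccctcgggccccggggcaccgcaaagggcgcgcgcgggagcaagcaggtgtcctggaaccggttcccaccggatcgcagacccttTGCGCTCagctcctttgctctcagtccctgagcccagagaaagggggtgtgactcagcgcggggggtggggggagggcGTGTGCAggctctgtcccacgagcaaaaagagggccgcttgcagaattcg
*Mt1*: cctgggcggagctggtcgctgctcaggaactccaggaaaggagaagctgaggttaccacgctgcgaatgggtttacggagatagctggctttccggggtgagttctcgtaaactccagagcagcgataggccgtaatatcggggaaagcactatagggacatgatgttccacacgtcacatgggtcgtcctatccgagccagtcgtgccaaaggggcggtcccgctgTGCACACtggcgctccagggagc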

How the data were processed

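Liver RNA of 6 WT and 7 *Nod2*-/- mice was sequenced as 1 library per mouse; the labels describe stranded polyA libraries and the paper total RNA. The authors trimmed reads with Trimmomatic 0.33, aligned them to GRCm38 with TopHat2 2.1.1 and deposited raw counts per gene; the counting program and its use of strand are not given in the sources used here. An entry with no gene name (1) was left out. Of 53465 genes, 53274 matched GENCODE M21, a later release than the authors used. Libraries within a genotype differed by more than counting error (36 pairs, chi-square over its degrees of freedom 11.3 to 179).

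Genes kept by filterByExpr were tested in edgeR 4.0.16 under R 4.3.3 (TMM, glmQLFit and glmQLFTest, two-sided, no covariate, Benjamini-Hochberg over 13545 genes). Mean normalized counts of single genes were tested by exact permutation (1716 assignments of mice, two-sided). Alternatives were DESeq2 1.42.0 (with independent filtering set to 5%), limma 3.58.1 voomWithQualityWeights, RLE, 2 count filters, the replicate block, the library size without the 20 most abundant genes and leaving out each mouse; DESeq2 with its default alpha was an alternative chosen after seeing the data. The packages were first tested on counts simulated with the same spread beyond counting error for every gene. There the false calls of DESeq2, unlike those of edgeR and voom, were well above its 5% threshold.

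The members and gene lists were chosen with earlier results of these data known. Genes named are the members, *Slc7a11*, *Nod2*, list genes past 5% FDR or otherwise the 1 to 3 most abundant, the most abundant gene of each cell type list, the 3 genes most correlated with each member and tested genes within 1 Mb of *Mt1* and *Mt2*. Within a list, most abundant refers to normalized counts, which are not divided by exon length. *Mt3*, *Mt4*, the other genes given for the cell type lists, and list genes that passed only in an alternative were named after their values were seen. An item that this rule selects is not reported here. Log2 CPM used a pseudocount of 0.5 CPM.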

Additional observations from a re-analysis of the deposited data

Results flagged for a closer look

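In 18 groups of mice (9 genes in 2 genotypes) the highest and lowest mouse were compared with the nearest other mouse of the group, and 3 values stood apart by more than Dixon's 95% critical value. Chance alone does this in about 1 in 20 groups of normally distributed values, and counts as widely spread as those of *Mt1* and *Mt2* are not such values. WT replicate 6 had 3564 normalized counts of *Mt1*, with 706 in the next highest WT mouse, a gap of 0.827 of the group's range (critical value 0.625). The same mouse had 2211 of *Mt2*, with 354 in the next, a gap of 0.856 of the range. On the log2 scale, looked at after seeing the data, these gaps were 0.464 and 0.457 of the range, below the critical value, so the mouse stood apart on the linear scale only. Since *Mt1* and *Mt2* moved together, these are not independent. *Nod2*-/- replicate 4 had 2672 normalized counts of *Gclm*, with 3688 in the next lowest *Nod2*-/- mouse, a gap of 0.716 of the range (0.756 on the log2 scale, critical value 0.568).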

How the results depend on the processing

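No gene of the 9 passed 5% FDR in any of the 21 alternatives (0 each, by edgeR, DESeq2 and voom). *Nfe2l2*, *Gclc*, *Gclm*, *Txnrd1*, *Mt1* and *Mt2* kept their direction in all 21, and the lowest adjusted p of *Nfe2l2* was 0.0545, without WT replicate 3 (range to 0.304). *Srxn1* changed sign in 7: its log2 fold change was 0.042 with voom, and 0.070, 0.035, 0.020, 0.067 and 0.00099 without WT replicates 3, 4 and 5 and *Nod2*-/- replicates 5 and 7. *Nqo1* and *Hmox1* changed sign without *Nod2*-/- replicate 7 (-0.077 and -0.11). The permutation p of *Gclm* was 0.0507 on log2 CPM. Leaving out 1 mouse gave log2 fold changes of 0.26 to 0.39 (*Nfe2l2*), -0.077 to 0.21 (*Nqo1*), -0.11 to 0.28 (*Hmox1*), -0.27 to -0.04 (*Gclc*), -0.21 to -0.10 (*Gclm*), -0.13 to -0.06 (*Txnrd1*), -0.090 to 0.070 (*Srxn1*), 1.76 to 3.49 (*Mt1*) and 1.88 to 4.04 (*Mt2*). The causes were not tested.

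Over all genes edgeR called 88 higher and 69 lower. DESeq2 called 630 and 579 (605 and 549 with its default setting, added after seeing the data), and voom 519 and 324. Leaving out 1 mouse gave 20 to 697 higher and 20 to 459 lower. The counts moved over 1.5 times without WT replicate 3 (697 and 459), WT replicates 1 (21 and 20), 2 (24 and 21), 4 (20 and 22) and 5 (28 and 24), and *Nod2*-/- replicates 4 (31 and 36), 6 (53 and 28) and 7 (28 and 26); for lower genes also without *Nod2*-/- replicates 1 (104) and 3 (107).

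With the replicate block edgeR called 17 higher and 18 lower, and the log2 fold changes of *Nqo1*, *Hmox1* and *Srxn1* were -0.081, -0.14 and 0.0032. The deviations of same-numbered mice from their genotype means had correlations of -0.302 to 0.304. These gave no clear sign that the numbers pair the mice, but they cannot exclude it.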
